A study of Mus musculus with 8 samples.

Results

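The 30 mouse genes described here make cholesterol from acetyl-CoA, sense the sterol content of the cell, or move and break down sterols, and they were measured in sorted striatal medium spiny neurons (MSNs) of a Huntington's disease mouse model. They were taken as the non-control array probes whose gene name in the scanner files is one of the 30, and a probe counted as measured where 4 or more of the 8 arrays were marked well above background by the scanner software. All 30 genes were measured, of 26918 genes and transcripts that passed this filter and 34787 on the array. They had 44 probes, of which 41 passed. The probes just inside the filter were those of the sterol carrier Stard4, above background on 4 of 8 arrays, and just outside it was a second probe of Hmgcs1, above background on 3.

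The groups were R6/2;Scn4b-Venus mice and WT;Scn4b-Venus mice, all male and 4 weeks old, with 4 arrays each. R6/2 mice carry a transgene of exon 1 of human HTT with an expanded CAG repeat under the human HTT promoter, and both groups carry Venus, a fluorescent protein that reports Scn4b, a sodium channel subunit abundant in MSNs. Striatal cells with Venus fluorescence that did not take up propidium iodide, a dye of dead cells, were sorted, and nanogram amounts of their RNA were put on 1-colour Agilent arrays. The labels number the samples but do not say that each came from a separate animal, so p-values measure the spread between these samples.

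Cholesterol hardly crosses the blood-brain barrier, so the brain makes its own. Acetyl-CoA is joined into HMG-CoA and turned into mevalonate and then into isoprenoid diphosphates, which also feed prenylated proteins, dolichol and ubiquinone. Squalene, built from farnesyl diphosphate, is closed into lanosterol and trimmed to cholesterol. Transcription of these enzymes is driven by the SREBP proteins, which Scap carries out of the endoplasmic reticulum when sterols are low and which the Insig proteins hold back when sterols are high. In the adult brain astrocytes make much of the cholesterol and pass it to neurons on Apoe particles, while neurons clear it through Cyp46a1.

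Of the 30 genes, 0 passed an adjusted p of 0.05 in the comparison of R6/2 with WT (limma, Benjamini-Hochberg adjustment over all 26918 genes), where 0.00371% of all genes did, and the count was also 0 with the unpaired test named in the authors' deposited table. At an unadjusted p under 0.05 there were 2 of 30 genes, Hmgcs1 and Srebf2, or 6.67%, against 7.14% of all genes. These 2 were also the only members whose 4 R6/2 values all lay below the 4 WT values, which 2.57% of all genes showed, and 0 members had all R6/2 values above (2.16% of all genes). In all, 17 members had a negative log2 difference (R6/2 minus WT) and 13 a positive one, with a median of -0.14, beside a median of +0.03 and 46.0% negative over all genes. Without WT replicate 1, the array with the fewest probes above background, the members' median was +0.01. Across 20 alternative settings the count at an unadjusted p under 0.05 was 2 under 12, 3 under 7 and 4 under 1, which left out WT replicate 2 and added Cyp46a1 and Nr1h2 to Hmgcs1 and Srebf2.

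**Figure D1:**
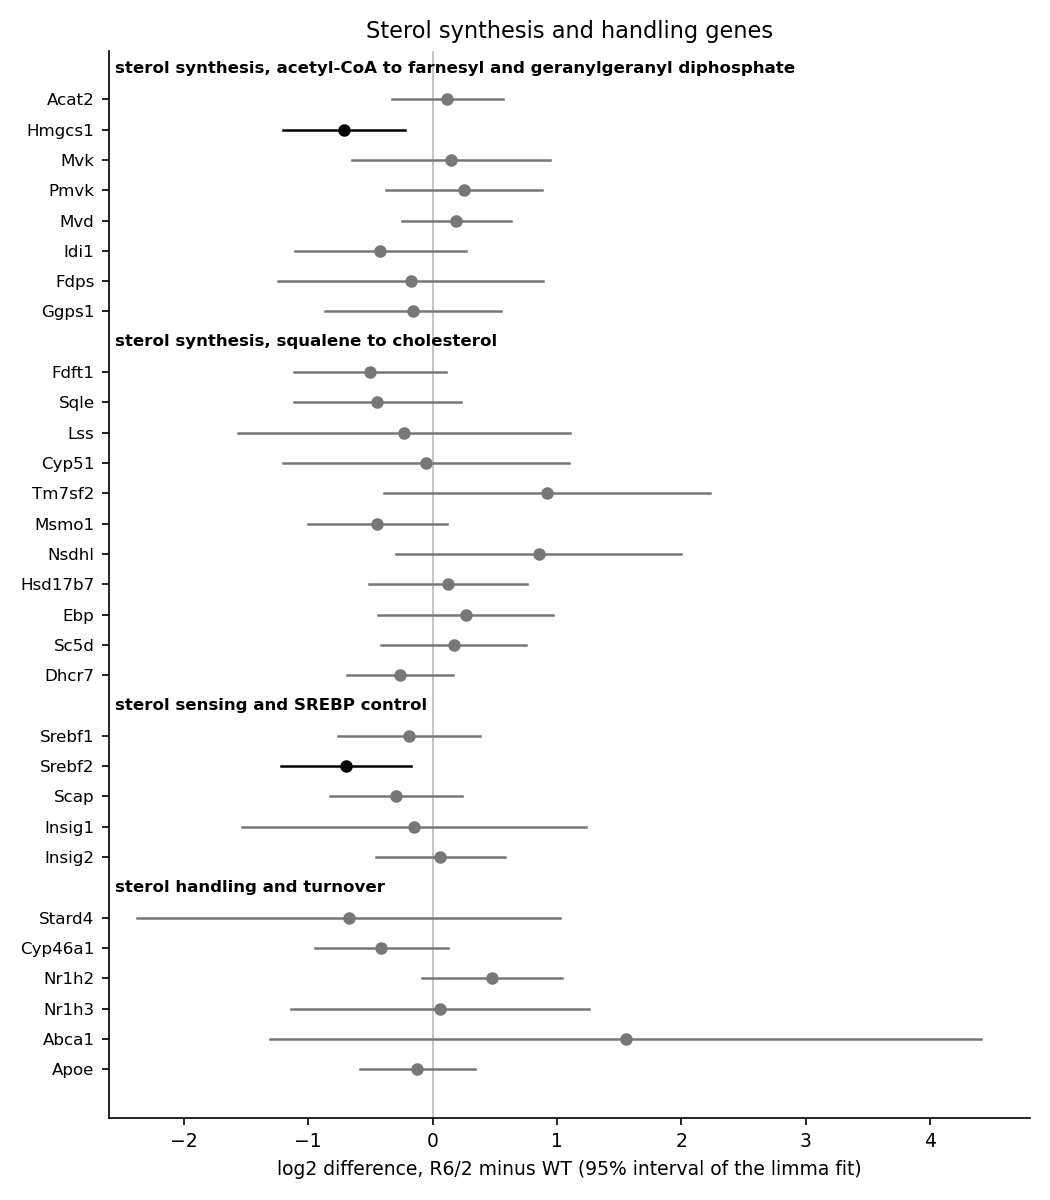
Each point is the log2 difference (R6/2 minus WT, horizontal axis) of 1 gene, with its 95% interval from the limma fit over 4 R6/2 and 4 WT arrays. Genes run down the page by role, and the 2 genes at an unadjusted p under 0.05, Hmgcs1 and Srebf2, are drawn in black; the intervals of the other 28 genes reach across 0.

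Of the arrays as a whole, probes well above background made up 74.0% to 78.8% in R6/2 and 50.1% to 76.2% in WT (exact permutation p = 0.114, two-sided, smallest possible 0.0286). The label of the cells was checked against 14 MSN markers, such as Ppp1r1b, Penk and Drd2. The list includes Scn4b (-1.15), the gene whose reporter was used to sort the cells, so its detection is no independent check. All 14 were above background on every array, and all 14 had a negative difference (median -0.54). Of these, 0 passed the adjusted limma threshold, while 8 of 14, or 57.1%, had an unadjusted p under 0.05, against 7.14% of all genes, and 6 had all R6/2 values below all WT values, against 2.57% of all genes. Summed over the list, the MSN signal was 627 to 747 times the array's 75th percentile in R6/2 and 913 to 1144 times in WT, and its part in the sterol genes' differences was not tested. In sorted bulk RNA, fewer cells of a type and less RNA per cell cannot be told apart. Oligodendrocyte markers summed to 12.7 to 21.3 times that percentile in R6/2 and 12.8 to 75.3 times in WT, where replicate 2 was the highest and the other 3 reached 27.7. Astrocyte markers, of which 5 of 12 were above background on every array, summed to 3.32 to 7.12 in R6/2 and 3.29 to 7.55 in WT. Of the 10 astrocyte markers tested, 7 had a positive difference and 3 a negative one, with a median of +0.15, and 1, Mlc1, had an unadjusted p under 0.05 (+1.35). R6/2 replicate 4 was alone on a second slide, and a value within the first slide leaves this array out.

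To show what the results on Hmgcs1 and Srebf2 rest on, the probes that measured them are printed first, 5′ to 3′, as deposited in the scanner files. Probe positions are on mm9. The first lies on an unplaced part of chromosome 13 (13_random, 114793 to 114852), and the others at chr15:82034765-82034824 and chr15:82030068-82030127, 4697 bases apart in the same gene.
Hmgcs1, A_55_P2032966: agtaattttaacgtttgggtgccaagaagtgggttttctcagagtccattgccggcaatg
Srebf2, A_51_P377508: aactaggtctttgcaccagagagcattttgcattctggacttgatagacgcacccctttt
Srebf2, A_55_P2000487: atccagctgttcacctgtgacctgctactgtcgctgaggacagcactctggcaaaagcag

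SREBP proteins bind sterol regulatory elements, in many promoters next to the CCAAT boxes of the factor NF-Y. RefSeq promoter windows (GRCm38.p6, 250 bases before to 50 after a start site) were found for 26 of the 30 genes. They were searched on both strands for TCACNCCAC, a core of the sterol regulatory element, and for CCAAT. The core was in 1 of the 37 member windows, that of Hmgcs1, and in 1.24% of all 32851 windows. This pattern leaves only 1 base free, so a window without it may still hold another form of the element. CCAAT was in the windows of 20 members and in 56.8% of the member windows, against 37.4% of all windows. The liver X receptor motif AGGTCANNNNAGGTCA was in 0 of 37 member windows and in 0.0152% of all. A match describes letters only, and the windows are those of annotated starts, whether or not MSNs use them. The windows of 4 genes are shown, both genes with separate groups and the bright enzymes Idi1 and Msmo1, chosen for their values. All 4 had negative differences. Windows of the bright members Acat2, Pmvk and Insig2, which had positive differences, are not shown. That of Acat2 holds neither the core nor CCAAT, while Pmvk and Insig2 have windows with CCAAT. Capitals mark the core and the CCAAT boxes, which read ATTGG where they lie on the other strand.
Hmgcs1, chr13:119690101-119690400, plus strand: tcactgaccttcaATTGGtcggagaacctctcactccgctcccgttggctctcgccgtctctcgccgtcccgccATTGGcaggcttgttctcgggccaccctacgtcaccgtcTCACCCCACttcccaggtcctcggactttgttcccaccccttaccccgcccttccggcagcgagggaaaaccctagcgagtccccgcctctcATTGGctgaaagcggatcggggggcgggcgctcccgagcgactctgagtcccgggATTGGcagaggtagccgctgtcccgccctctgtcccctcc
Srebf2, chr15:82147019-82147318, plus strand: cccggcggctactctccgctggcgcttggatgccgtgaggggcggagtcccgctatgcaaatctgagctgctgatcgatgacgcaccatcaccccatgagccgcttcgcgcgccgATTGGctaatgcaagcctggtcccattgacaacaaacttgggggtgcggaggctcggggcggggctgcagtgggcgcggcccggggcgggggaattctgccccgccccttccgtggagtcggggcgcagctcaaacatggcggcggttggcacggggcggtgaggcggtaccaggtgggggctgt
Idi1, chr13:8885356-8885655, plus strand: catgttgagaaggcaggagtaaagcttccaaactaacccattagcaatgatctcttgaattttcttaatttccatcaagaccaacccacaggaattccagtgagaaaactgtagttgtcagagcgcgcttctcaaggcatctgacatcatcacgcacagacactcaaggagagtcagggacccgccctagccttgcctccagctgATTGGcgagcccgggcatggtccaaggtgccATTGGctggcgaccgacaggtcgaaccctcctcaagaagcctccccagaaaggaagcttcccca
Msmo1, chr8:64733529-64733828, minus strand: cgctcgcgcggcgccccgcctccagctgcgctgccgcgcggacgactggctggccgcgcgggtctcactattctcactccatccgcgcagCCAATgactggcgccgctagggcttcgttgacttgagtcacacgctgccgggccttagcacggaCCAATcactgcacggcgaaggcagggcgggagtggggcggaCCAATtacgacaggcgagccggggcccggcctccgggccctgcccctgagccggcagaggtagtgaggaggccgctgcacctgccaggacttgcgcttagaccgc
In the Hmgcs1 window the core begins at position -137 relative to the start site, with 4 CCAAT boxes around it. The other 3 windows hold 1 CCAAT box (Srebf2), 2 (Idi1) and 3 (Msmo1).

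The first group of 8 genes leads from acetyl-CoA to the isoprenoid diphosphates. It had 4 negative and 4 positive differences, with a median of -0.02. Hmgcs1, which makes HMG-CoA from acetoacetyl-CoA, had log2 levels relative to the array's 75th percentile of 3.52, 3.41, 3.89 and 3.29 in R6/2 replicates 1 to 4, against 4.06, 4.59, 4.02 and 4.29 in WT replicates 1 to 4. The highest R6/2 array was below the lowest WT array. The difference was -0.71 (SE 0.215, 0.611-fold, 95% interval -1.20 to -0.22), with an unadjusted p = 0.00977 and an adjusted p = 0.596 by limma. It was -0.60 without WT replicate 2, the array with the high oligodendrocyte signal, and -0.63 within the first slide. In the authors' deposited table the same probe had a fold of 1.64 down, a p-value of 0.00826 and a corrected p-value of 0.778.

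**Figure D2:**
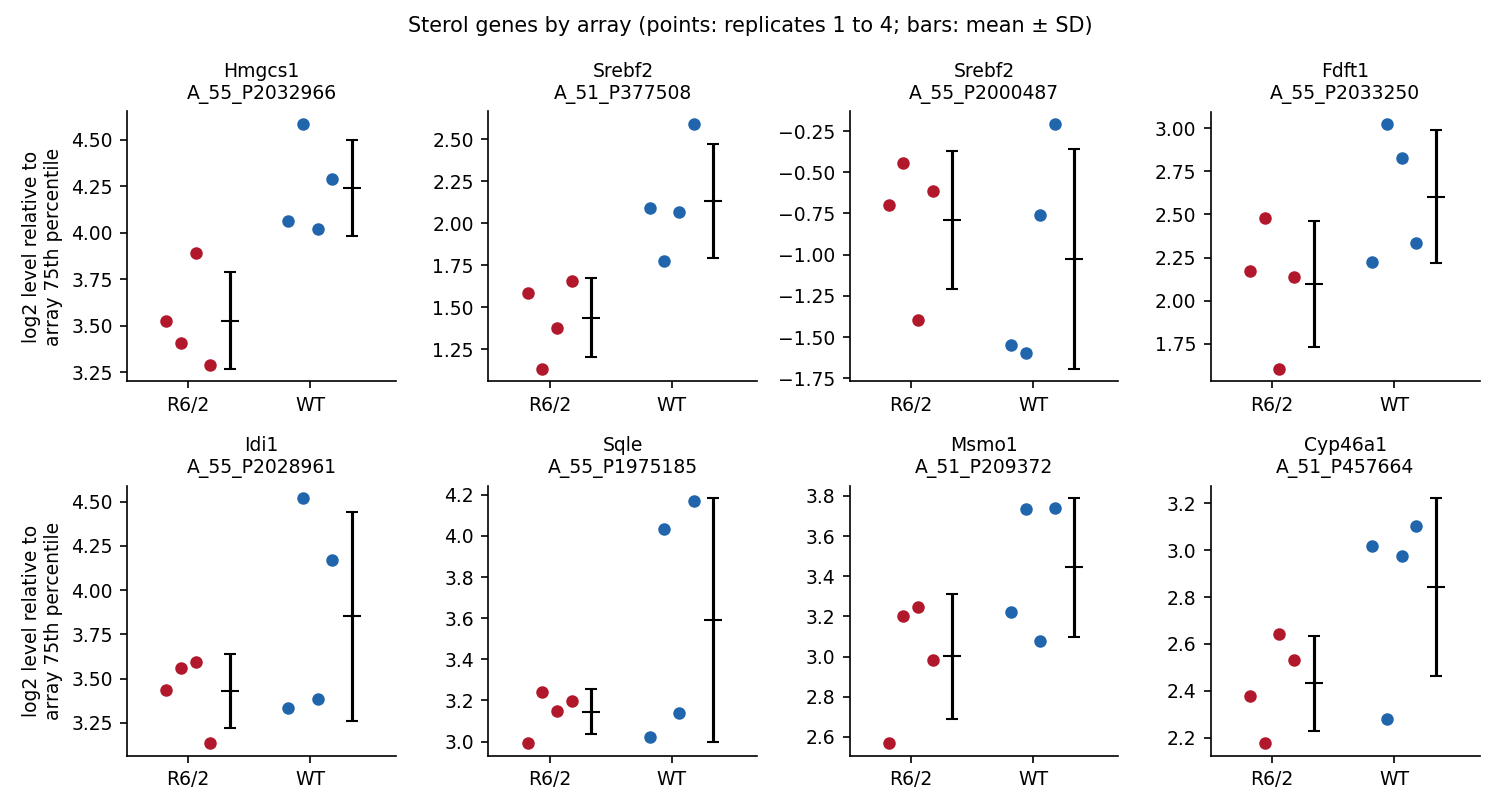
Vertical axes give the log2 level relative to the array's 75th percentile for 8 probes of 7 genes, with R6/2 arrays in red on the left and WT arrays in blue on the right; points are replicates 1 to 4 and bars the mean ± SD. R6/2 and WT points are separate for Hmgcs1 and for the first Srebf2 probe and mix in the other 6 panels, and for Idi1 and Sqle WT replicates 2 and 4 lie above the other arrays. All 7 genes shown have a negative difference by their brightest probe, while 13 of the 30 members have a positive one.

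Idi1, the isomerase that sets the ratio of the isoprenoid building blocks, was chosen for its values. It had levels of 3.44, 3.56, 3.60 and 3.13 in R6/2, against 3.33, 4.52, 3.38 and 4.17 in WT. WT replicates 2 and 4 were higher than every R6/2 array, and WT replicates 1 and 3 lay among the R6/2 arrays. The difference was -0.42 (SE 0.302, limma, adjusted p = 0.802). The thiolase Acat2, which makes acetoacetyl-CoA one step ahead of Hmgcs1, averaged 4.95 ± 0.17 in R6/2 and 4.84 ± 0.25 in WT (SD, n = 4 each), a difference of +0.12 (SE 0.195). Among the kinases and the decarboxylase that turn mevalonate into isopentenyl diphosphate, the difference was +0.15 for Mvk, +0.25 for Pmvk and +0.19 for Mvd. The prenyl diphosphate synthases had -0.18 (Fdps) and -0.16 (Ggps1). In this stretch of the pathway Hmgcs1 was alone in having separate groups.

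The 11 genes from squalene to cholesterol had 6 negative and 5 positive differences, a median of -0.05, and 0 with an unadjusted p under 0.05. The first steps, squalene synthase (Fdft1) and squalene epoxidase (Sqle), were in the negative part. Sqle, the step at which oxygen enters the molecule, had levels of 2.99, 3.24, 3.15 and 3.20 in R6/2, against 3.02, 4.03, 3.14 and 4.17 in WT. The 4 R6/2 arrays lay close together, with WT replicates 1 and 3 among them and WT replicates 2 and 4 above. The difference was -0.45 (SE 0.294, limma, adjusted p = 0.789), and it ran from -0.64 to -0.25 with 1 array left out at a time. Fdft1, chosen for its values, had levels of 2.18, 2.48, 1.60 and 2.14 in R6/2, against 2.22, 3.03, 2.82 and 2.34 in WT. R6/2 replicate 2 lay above WT replicates 1 and 4, and the difference was -0.50 (SE 0.267, limma, adjusted p = 0.746). A dimmer Fdft1 probe had +0.44.

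Msmo1, listed on the array under its older name Sc4mol, oxidises the methyl groups of the sterol ring. Chosen for its values too, it had levels of 2.57, 3.20, 3.25 and 2.98 in R6/2, against 3.22, 3.74, 3.08 and 3.74 in WT. The groups overlapped, since WT replicates 1 and 3 lay among the R6/2 arrays, and the difference was -0.44 (SE 0.246, limma, adjusted p = 0.757). Dhcr7, the reductase of the last step, had -0.26, lanosterol synthase (Lss) -0.23 and the lanosterol demethylase Cyp51 -0.05. The values above 0 were +0.92 for the sterol reductase Tm7sf2, +0.85 for the dehydrogenase Nsdhl, +0.27 for the isomerase Ebp, +0.17 for the desaturase Sc5d and +0.12 for the ketosteroid reductase Hsd17b7. Tm7sf2 and Nsdhl were dim, with mean levels in WT of -2.68 and -3.08.

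**Figure D3:**
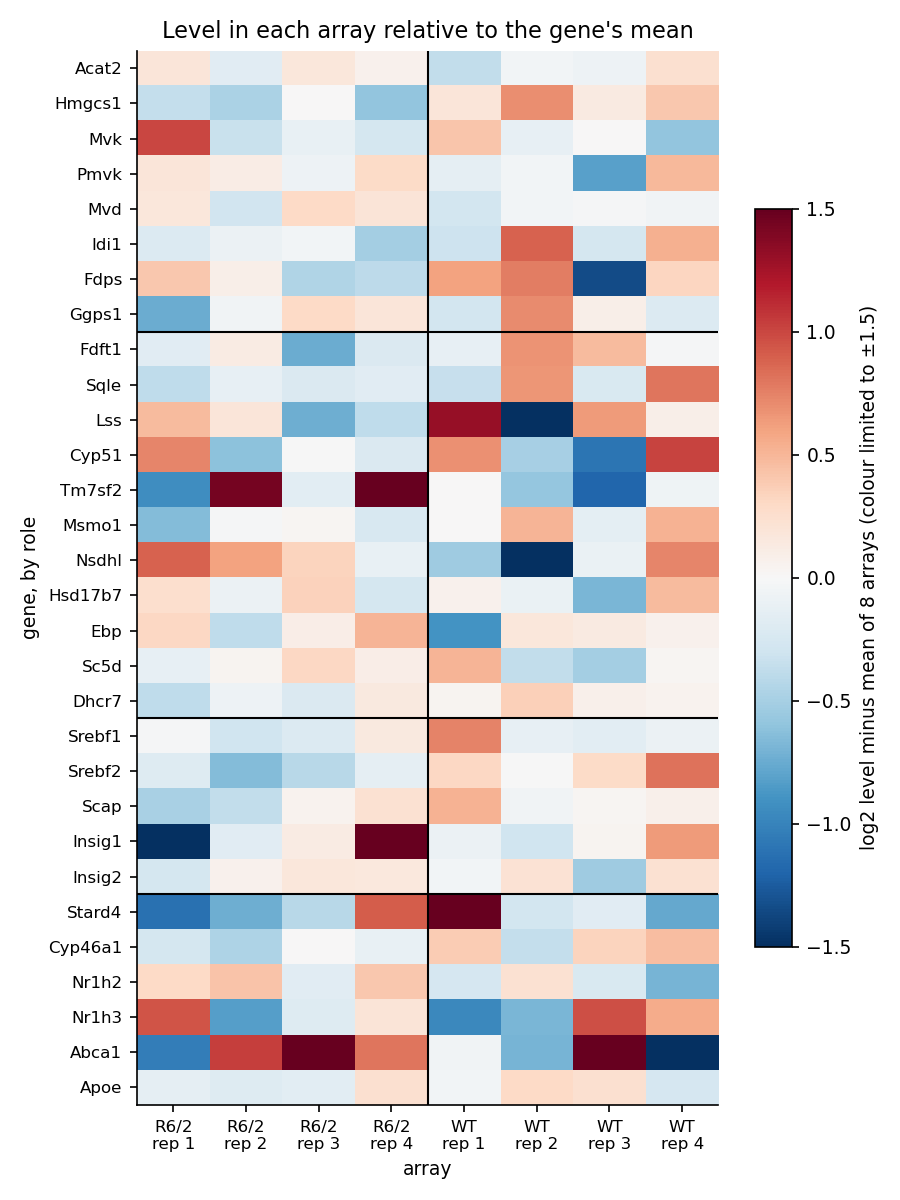
Colours give the log2 level of each of the 30 genes (down the page, by role, lines between roles) in each array (across, R6/2 left of WT) minus the gene's mean over the 8 arrays, with red for higher and blue for lower and the colour limited to ±1.5. In Hmgcs1 and Srebf2 every R6/2 array is lower than every WT array, with R6/2 replicate 3 (Hmgcs1) and WT replicate 2 (Srebf2) near white, while the 28 other genes are mixed between the groups.

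The size and sign of a difference went with the brightness of the probe over the whole array, a view taken after the data were seen. Among 4824 genes with a mean level of 2 or more, the median difference was -0.03 and 55.5% were negative. The 9 members in this range, Acat2, Cyp46a1, Fdft1, Hmgcs1, Idi1, Insig2, Msmo1, Pmvk and Sqle, had a median of -0.42, with 6 of 9 negative, and 10% of all genes in this range lay below -0.41. Among 9391 genes with a mean level below -2, the median was +0.16 with 36.6% negative, and 3 of the 7 members there were negative. The positive values of Tm7sf2 and Nsdhl belong to this dim range, where 10% of all genes lay above +0.85. Whether brightness has a part in the members' differences was not tested.

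The 5 genes of sterol sensing had 4 negative differences and a median of -0.19. Srebf2 encodes SREBP-2, the SREBP most tied to the sterol enzymes. Its brightest probe had levels of 1.59, 1.13, 1.37 and 1.65 in R6/2, against 2.09, 1.78, 2.07 and 2.59 in WT. All 4 R6/2 values were below all 4 WT values. The difference was -0.70 (SE 0.229, 0.617-fold, 95% interval -1.22 to -0.17), with an unadjusted p = 0.0149 and an adjusted p = 0.616 by limma, and it was -0.77 within the first slide. The authors' deposited table gave this probe a fold of 1.62 down with a p-value of 0.0150 and a corrected p-value of 0.819.

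The second Srebf2 probe, dimmer and nearer the 5′ side of the gene, went another way. It had levels of -0.70, -0.44, -1.40 and -0.61 in R6/2, against -1.55, -1.60, -0.76 and -0.21 in WT. WT replicate 4 was the highest array and the groups overlapped, with a difference of +0.24 (SE 0.369). With the mean of both probes in place of the brightest, Srebf2 had -0.23 and an unadjusted p = 0.423. The probes measure different stretches of the transcript, and which of them follows the level of Srebf2 was not tested.

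Among the other sensing genes, Srebf1, whose product drives fatty acid genes as well as sterol genes, had -0.19, and Scap, the escort of the SREBPs, had -0.29. Insig1, which holds Scap back and is itself a target of the SREBPs, had levels of -3.57, -1.97, -1.68 and -0.29 in R6/2, against -1.89, -2.10, -1.76 and -1.16 in WT. The R6/2 arrays held both the lowest and the highest value, and the WT arrays lay between them. The difference was -0.15 (SE 0.607, limma, adjusted p = 0.973), and without R6/2 replicate 1 it was +0.41. Insig2 averaged 2.61 ± 0.21 in R6/2 and 2.54 ± 0.36 in WT (SD, n = 4 each), a difference of +0.06 (SE 0.228).

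**Figure D4:**
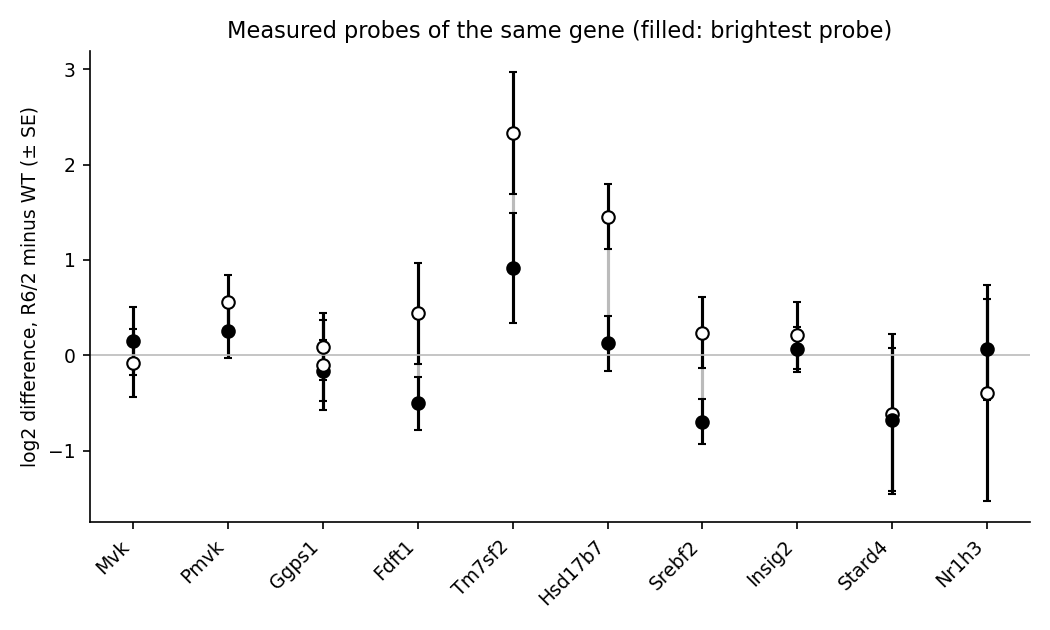
Vertical positions give the log2 difference (R6/2 minus WT, ± SE of the limma fit) of each measured probe for the 10 genes with more than 1, with the brightest probe of a gene filled. The probes of Mvk, Ggps1, Fdft1, Srebf2 and Nr1h3 lie on both sides of 0, and the open points of Tm7sf2 and Hsd17b7 lie at +2.33 and +1.45.

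For 10 of the 30 genes more than 1 probe was measured, and for 5 of them, Mvk, Ggps1, Fdft1, Srebf2 and Nr1h3, the probes had opposite signs. In a fit of all 41385 tested probes, added after the data were seen, 4 of the 41 member probes (9.76%) had an unadjusted p under 0.05, against 7.02% of all probes, and 0 passed the adjusted threshold. Besides the Hmgcs1 and Srebf2 probes these were a second probe of Tm7sf2 and a second probe of Hsd17b7, both higher in every R6/2 array than in any WT array, which 2.31% of all probes were, against 2.26% lower in every R6/2 array. They are printed here with the brighter probes of the same genes, since the probes of a gene differed so much. On mm9 the Tm7sf2 probes lie at chr19:6062882-6062941 and chr19:6063541-6063600, and the Hsd17b7 probes at chr1:171883182-171883241 and chr1:171880203-171880262.
Tm7sf2, A_52_P35064: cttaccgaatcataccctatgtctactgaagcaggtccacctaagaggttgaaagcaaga
Tm7sf2, A_55_P2171406: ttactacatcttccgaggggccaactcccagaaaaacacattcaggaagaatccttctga
Hsd17b7, A_55_P1997936: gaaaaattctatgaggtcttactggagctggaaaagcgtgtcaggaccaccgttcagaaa
Hsd17b7, A_52_P566605: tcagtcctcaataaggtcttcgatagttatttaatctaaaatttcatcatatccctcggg

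The first Tm7sf2 probe had levels of -2.50, -0.59, -0.15 and -1.27 in R6/2, against -5.02, -2.91, -3.16 and -2.73 in WT. Its difference was +2.33 (SE 0.641, limma, unadjusted p = 0.00601, adjusted p = 0.568), against +0.92 for the brighter probe, whose groups overlapped. The first Hsd17b7 probe had levels of -1.18, -2.46, -1.54 and -0.97 in R6/2, against -3.14, -3.16, -3.09 and -2.57 in WT. Its difference was +1.45 (SE 0.341, limma, unadjusted p = 0.00242, adjusted p = 0.549), while the brighter probe averaged 0.35 ± 0.28 in R6/2 and 0.23 ± 0.48 in WT (SD, n = 4 each). Both of the separating probes were dim, and WT replicate 1 was not above background for either, with the other 7 arrays above it. With the mean of a gene's probes, the members at an unadjusted p under 0.05 were Hmgcs1, Hsd17b7 and Tm7sf2.

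The last 6 genes handle and turn over sterols, with 3 negative and 3 positive differences and a median of -0.03. Cyp46a1, the hydroxylase that lets cholesterol leave neurons and the brain, had levels of 2.38, 2.18, 2.64 and 2.53 in R6/2, against 3.02, 2.28, 2.97 and 3.103 in WT. All R6/2 arrays were below WT replicates 1, 3 and 4, and WT replicate 2 lay among them. The difference was -0.41 (SE 0.234, 0.751-fold, limma, unadjusted p = 0.114, adjusted p = 0.764). Without WT replicate 2 it was -0.60 with an unadjusted p = 0.0138 and an adjusted p = 0.605. That array also had the highest oligodendrocyte signal, and the part of that signal in the Cyp46a1 level was not tested.

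Nr1h2 and Nr1h3 encode the liver X receptors, which oxysterols activate. Nr1h2, chosen for its values, had levels of 1.31, 1.44, 0.84 and 1.42 in R6/2, against 0.76, 1.24, 0.78 and 0.32 in WT. The groups overlapped, with means of 1.25 ± 0.28 in R6/2 and 0.77 ± 0.38 in WT (SD, n = 4 each). The difference was +0.48 (SE 0.247, limma, unadjusted p = 0.0864, adjusted p = 0.741). Apart from Hmgcs1 and Srebf2, no member had a smaller unadjusted p. Nr1h3 had levels of -1.06, -2.83, -2.20 and -1.81 in R6/2, against -2.97, -2.69, -1.03 and -1.45 in WT. The WT arrays spanned the whole R6/2 range, with a difference of +0.06 (SE 0.523), and the sign turned under 7 of 19 other settings.

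Abca1, a liver X receptor target that loads cholesterol onto apolipoproteins, had levels of -3.35, -1.27, -0.02 and -1.51 in R6/2, against -2.37, -3.01, -0.35 and -6.63 in WT. Replicate 3 was the highest array in each group, and WT replicate 4 was not above background. The difference of +1.55 had an SE of 1.25 (limma, adjusted p = 0.824), and it ran from +0.37 to +2.47 with 1 array left out at a time, the lowest without WT replicate 4. Apoe, the main apolipoprotein of the brain, made mostly by astrocytes, had levels of 0.23, 0.16, 0.21 and 0.59 in R6/2, against 0.32, 0.66, 0.60 and 0.10 in WT. The groups overlapped and the difference was -0.12 (SE 0.203, limma, adjusted p = 0.924). Stard4, which carries cholesterol between membranes, was above background on 2 R6/2 and 2 WT arrays and had -0.67 (SE 0.746).

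**Figure D5:**
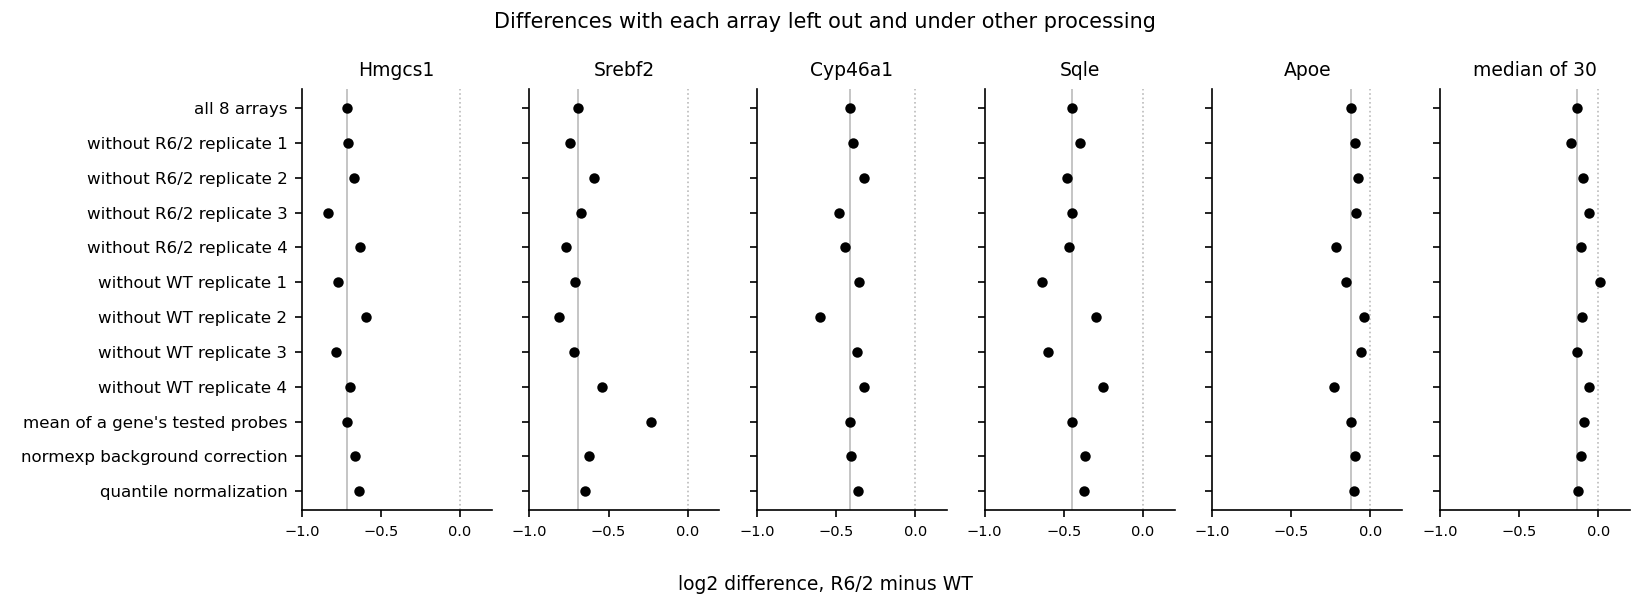
Points give the log2 difference (R6/2 minus WT, horizontal axes) of 5 genes and the median of the 30 with all 8 arrays, with each array left out and under 3 other ways of processing; the grey line marks the value with all 8 arrays and the dotted line 0. Hmgcs1 stays between -0.83 and -0.60 in these settings, Srebf2 comes nearest to 0 with the mean of its probes (-0.23), and the median passes 0 without WT replicate 1.

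Related genes outside the 30 were described in 4 further lists, none of which had a gene past the adjusted limma threshold. Of the further genes listed for SREBP processing and sterol sensing, 14 of 14 were tested, with a median of +0.10 and 6 negative. At an unadjusted p under 0.05 (limma) there were 2, or 14.3%, against 7.14% of all genes. Of these 14, 2 had separate groups lower in R6/2 and 1 higher, beside 2.57% and 2.16% of all genes. Mbtps1, the site-1 protease that makes the first cut in SREBPs, had levels of 2.28, 2.10, 2.55 and 2.56 in R6/2, against 3.27, 3.74, 2.89 and 2.98 in WT. Its groups were separate, with a difference of -0.85 (SE 0.239, limma, unadjusted p = 0.00683, adjusted p = 0.559). Nfya, a subunit of NF-Y, had 1.57, 0.32, -0.26 and -0.11 in R6/2, against -2.03, -2.94, -1.39 and -0.99 in WT. These groups were also separate, with a difference of +2.22 (SE 0.520, limma, unadjusted p = 0.00237, adjusted p = 0.512), whereas the NF-Y subunits Nfyb and Nfyc had -0.12 and -0.30. The chaperone Hsp90b1 had -0.23 with separate groups (limma, unadjusted p = 0.188, adjusted p = 0.799).

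For uptake, transport and storage, 17 of 20 listed genes were tested, with a median of -0.19, 9 negative and 2 at an unadjusted p under 0.05, or 11.8%, against 7.14% of all genes. The lipoprotein receptor Scarb1 had -1.12 (SE 0.395, limma, unadjusted p = 0.0212), the sterol exporter Abcg4 +0.58 (SE 0.249, unadjusted p = 0.0464) and the lipid transporter Abca3 -0.58. The groups of Abcg4 barely parted, since its lowest R6/2 level was -0.1385 and its highest WT level -0.1394. SREBP-driven fatty acid synthesis had a median of -0.05 over 14 genes, with 8 negative and 1 at an unadjusted p under 0.05, or 7.14%, the share found over all genes. Its genes with the smallest p were the fatty acid synthase Fasn (-1.19), above background on 2 R6/2 and 3 WT arrays, the acetyl-CoA carboxylase Acaca (-0.37) and the desaturase Fads1 (-0.54). The 16 genes that use isoprenoids for prenylation, dolichol and quinones had a median of +0.03 and 7 negative. Among them the protease Zmpste24 had +0.33 (limma, unadjusted p = 0.0834, adjusted p = 0.737). Its groups were separate, higher in R6/2, which 2.16% of all genes showed. Nus1, of dolichol synthesis, had -0.41.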

How the data were processed

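Per the file headers, the deposited scanner files give spot intensity from Agilent Feature Extraction 10.7.3.1, corrected by spatial detrending and with dim spots set to surrogates, the arrays not being scaled to each other. A garbled line of R6/2 replicate 3 was left out, so 62974 of 62976 spots were read. Per the file headers, the authors' deposited table holds log2 values, the p-value of an unpaired test and an absolute fold change, and it was used as an alternative and beside single probes.

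Here log2 of the processed intensity was averaged over a probe's spots, without outlier spots, and the array's 75th percentile was subtracted. The filter of 4 of 8 arrays above background kept 41385 of 55681 non-control probes. Names came from the probe's accession (26762 probes), symbol (3819) or older symbol (639) through RefSeq, and 24461 kept the file's name. The brightest measured probe stood for a gene. R6/2 minus WT was fitted with limma 3.58.1 (lmFit and eBayes, R 4.3.3, two-sided) and p-values were adjusted over all 26918 genes by Benjamini-Hochberg. The method was tested on simulated data.

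Values of every array are given for members with an unadjusted p under 0.05 or separate groups and for Hmgcs1, Srebf2, Cyp46a1, Abca1, Apoe, Insig1, Sqle and Nr1h3. Those of Idi1, Fdft1, Msmo1 and Nr1h2 were added for their values. Up to 3 genes with the smallest p are named from each further list, and 1 gene of the isoprenoid list is not reported here. Array-wide measures were compared by an exact permutation test over 70 assignments. Marker sums add the brightest probe of each marker on the linear scale. The members, lists and naming rule were chosen with earlier results of these data known. The number of arrays limits the precision. Levels of different probes served to choose a gene's brightest probe, to group genes by brightness and to sum markers. No test was made between the levels of different probes.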

Additional observations from a re-analysis of the deposited data

Results flagged for a closer look

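In 6 of 60 groups of 4 arrays (30 genes in each genotype), 1 array stood apart from the other 3 by Dixon's test at its 95% critical value, where chance gives about 1 in 20 groups. In R6/2, replicate 4 was the highest for Apoe at 0.59, with the other 3 arrays between 0.16 and 0.23. Apoe has 10 spots on each array, and on that array their intensity ran from 363 to 741, with a median of 678. In WT, replicate 1 was the lowest for the decarboxylase Mvd at -0.74 and for the isomerase Ebp at 0.018, and the highest for Srebf1 at -0.095. This array had the fewest probes above background, 50.1%. WT replicate 2 was the highest for the reductase Dhcr7 at -0.48 and the lowest for Cyp46a1 at 2.28, and it had the highest oligodendrocyte marker sum, 75.3 times the 75th percentile. Whether detection or oligodendrocyte RNA has a part in these values was not tested.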

How the results depend on the processing

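Under 21 alternatives, 1 of them added after the data were seen, 0 members passed the adjusted threshold. The slide as a block, the first slide alone and leaving out R6/2 replicate 4 are the same fit, so these 3 are not independent checks. Over all genes the count of 1 became 8 with normexp background correction, 8 with quantile normalization, 6 where all 8 arrays had to be above background, 5 where a gene's probes were averaged and 9 with array weights. It was 0 with the slide as a block, within the first slide and with the authors' kind of unpaired test, and between 0 and 3 with 1 array left out. The members' median ran from -0.17 to +0.014 with 1 array left out, the highest without WT replicate 1, and their negative count from 14 to 19. Same-numbered arrays did not deviate together (correlations 0.030, -0.046, 0.0027 and -0.0057 for replicates 1 to 4), so the samples were not treated as paired. These correlations cannot show whether same-numbered samples shared a litter or a day of sorting, which the labels do not give. With the replicate block the count over all genes was 0, and Hmgcs1 and Srebf2 kept an unadjusted p under 0.05 (0.0360 and 0.0162). Hmgcs1 had differences of -0.83 to -0.60 and an unadjusted p of 0.00628 to 0.0360 under all 20 alternatives of single genes (adjusted 0.424 to 0.817), and Srebf2 lost its unadjusted call only with the mean of its probes (-0.23). Insig1 ran from -0.68 to +0.41 with 1 array left out and was positive without R6/2 replicate 1 (+0.41) and without WT replicate 4 (+0.040). Nr1h3 turned negative with normexp (-0.049), quantile normalization (-0.039), the mean of its probes (-0.17) and array weights (-0.41), and without R6/2 replicate 1 (-0.24), WT replicate 1 (-0.25) or WT replicate 2 (-0.16), and it ran up to +0.40 without WT replicate 3. Abca1 and Nr1h3 have no value where all 8 arrays must be above background. The causes were not tested. Members with a standard error under 0.35 numbered 21, and the dim ones, up to an SE of 1.25, carry little information on smaller differences.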

Other observations

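Of the remaining marker lists, oligodendrocyte precursor markers summed to 0.866 to 1.34 times the 75th percentile in R6/2 and 1.28 to 1.77 times in WT, with 3 of 5 markers (Cspg4, Olig2 and Sox10) above background on all 8 arrays, and Pdgfra and Olig1 above background on 0 R6/2 arrays and 1 WT array each. Of the 3 tested, 2 had a negative difference. Endothelial and mural markers summed to 3.58 to 4.52 times in R6/2 and 3.92 to 6.25 times in WT, with 3 of 9 above background on all 8 arrays and 4 of the 7 tested negative. Microglia markers summed to 149 to 175 times in R6/2 and 180 to 199 times in WT, a sum carried by 1 very bright Itgam probe. Of 10 microglia markers, 6 were above background on all 8 arrays. The 8 tested had 4 negative and 4 positive differences with a median of +0.02. Among these 8, 1 had all R6/2 values below all WT values, which 2.57% of all genes showed. Striatal interneuron markers summed to 149 to 173 times in R6/2 and 168 to 189 times in WT, a sum carried by 1 bright Lhx6 probe. Of 8 interneuron markers, 3 (Pvalb, Th and Lhx6) were above background on all 8 arrays, Npy was on 4 R6/2 arrays and 0 WT arrays, Chat on 1 R6/2 array and 0 WT arrays, and 4 of the 7 tested had a negative difference. No marker of these lists passed the adjusted limma threshold, the count at an unadjusted p under 0.05 was 0 in each of the 4 lists, and what the Itgam and Lhx6 probes measure was not tested.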
